A study of Mus musculus with 11 samples.

Results

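The DNA replication machinery was examined as a list of 47 genes, found by gene symbol among the 24320 genes of a mouse brain expression table. All 47 members were in the table, and all 47 reached at least 1 FPKM in at least 3 libraries, as did 14491 genes in all. FPKM are fragment numbers scaled by transcript length and library total, so levels can be set beside each other between genes. The members cover the MCM2-7 helicase, the origin recognition complex, the factors that load and start the helicase, the clamp and its loader, the replicative polymerases, the enzymes that join DNA fragments, and 4 enzymes of nucleotide supply.

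RNA sequencing covered 4 NRAS tumors, 4 PDGFB tumors and 3 normal brains, 11 libraries in all, and the study set out to compare both mouse models with human glioblastoma subtypes. Both tumor types came from plasmids given to newborn mice by injection into the right lateral ventricle, carrying Sleeping Beauty transposase, firefly luciferase and SV40LgT, the large T antigen that binds the tumor suppressors Rb and p53. NRAS tumors also received constitutively active NRASG12V (nRas-G12V in the sample labels), PDGFB tumors received PDGFB, and normal brain is labelled WT control. Large T was thus part of all 8 tumors, so against normal brain its share in a difference and that of NRAS or PDGFB cannot be told apart. Tumor tissue was dissected at a middle stage of growth under GFP light, with the promoters and target cells of the transgenes not given in the sources used here. On strain, the series text gives FVB, whereas the sample labels give B6 for every library except normal brain 3, which is FVB. Titles mark normal brain 1 as the match of NRAS tumor 2 and normal brain 3 as the match of PDGFB tumor 1. No label states that replicates came from separate animals, and p-values therefore reflect only the spread among samples.

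Before a cell copies its DNA, the origin recognition complex, CDC6 and CDT1 load rings of MCM proteins onto origins, and geminin blocks a further round of loading by binding CDT1. CDC7 kinase, CDC45 and the GINS complex then turn the loaded rings into active helicases, primase with polymerase alpha starts each strand, and polymerases delta and epsilon extend it while held by the PCNA clamp. Most of these genes are transcribed as cells enter S phase under E2F factors, which Rb holds in check, and most neurons of the adult brain no longer divide.

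The genes on the plasmids matched the labels. Nras had 154, 139, 119.7 and 82 FPKM across NRAS tumors 1 to 4, 36.5, 42.9, 39 and 31.7 FPKM across PDGFB tumors 1 to 4, and 13.8, 13 and 17.5 FPKM across normal brains 1 to 3, and Pdgfb had 5.15 to 7.80 FPKM in NRAS tumors and 745 to 1564 FPKM in PDGFB tumors, against 6.12 to 7.19 FPKM in normal brain. The table holds no read counts, so depth in reads is unknown. Relative depth was estimated from steps between values under 0.3 FPKM. It was 0.930 to 1 of the deepest in NRAS tumors, 0.862 to 0.892 in PDGFB tumors and 0.776 to 0.815 in normal brain. The estimate is rough, since 52.6% to 56.7% of ratios came within 0.02 (log2) of what whole reads would give. Depth thus differed by group, and its part in the differences between groups was not tested. Neuron markers were present in all libraries, and 12 of them summed to 346 to 1598 FPKM in NRAS tumors, 171 to 866 FPKM in PDGFB tumors and 3359.6 to 3872 FPKM in normal brain.

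Nearly the whole machinery was higher in tumors of either kind. In NRAS tumors 43 of the 47 members rose against normal brain and 0 fell (limma, adjusted p under 0.05), where 32% of the 14491 genes tested were called higher and 30.3% lower. In PDGFB tumors 44 members rose and 0 fell, against 29.3% of all genes called higher and 29.2% lower. The 43 members called in NRAS tumors were all called in PDGFB tumors as well, but both comparisons use the same 3 normal brains. The median log2 fold change of the members, on the log2(FPKM + 1) scale, was 2.32 in NRAS tumors and 2.81 in PDGFB tumors, where the median of all genes tested was 0.01 and 0.04. Every library of the tumor group lay above every normal brain for 44 members in NRAS tumors (33.2% of all genes) and for 45 in PDGFB tumors (33.8% of all genes), while 31.9% and 32% of all genes lay wholly below and no member did. Tissue was sequenced in bulk, so more cells of a dividing type and more RNA per cell cannot be told apart. Titles also carry numbers in 2 series, 1834 to 1838 with all normal brains and NRAS tumors 1 and 2, and 2038 to 2046 with the rest. Within the first series 41 members were called in NRAS tumors against normal brain, while no series holds both PDGFB tumors and normal brain, and 43 members were called there with the series as a covariate.

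**Figure D1:**
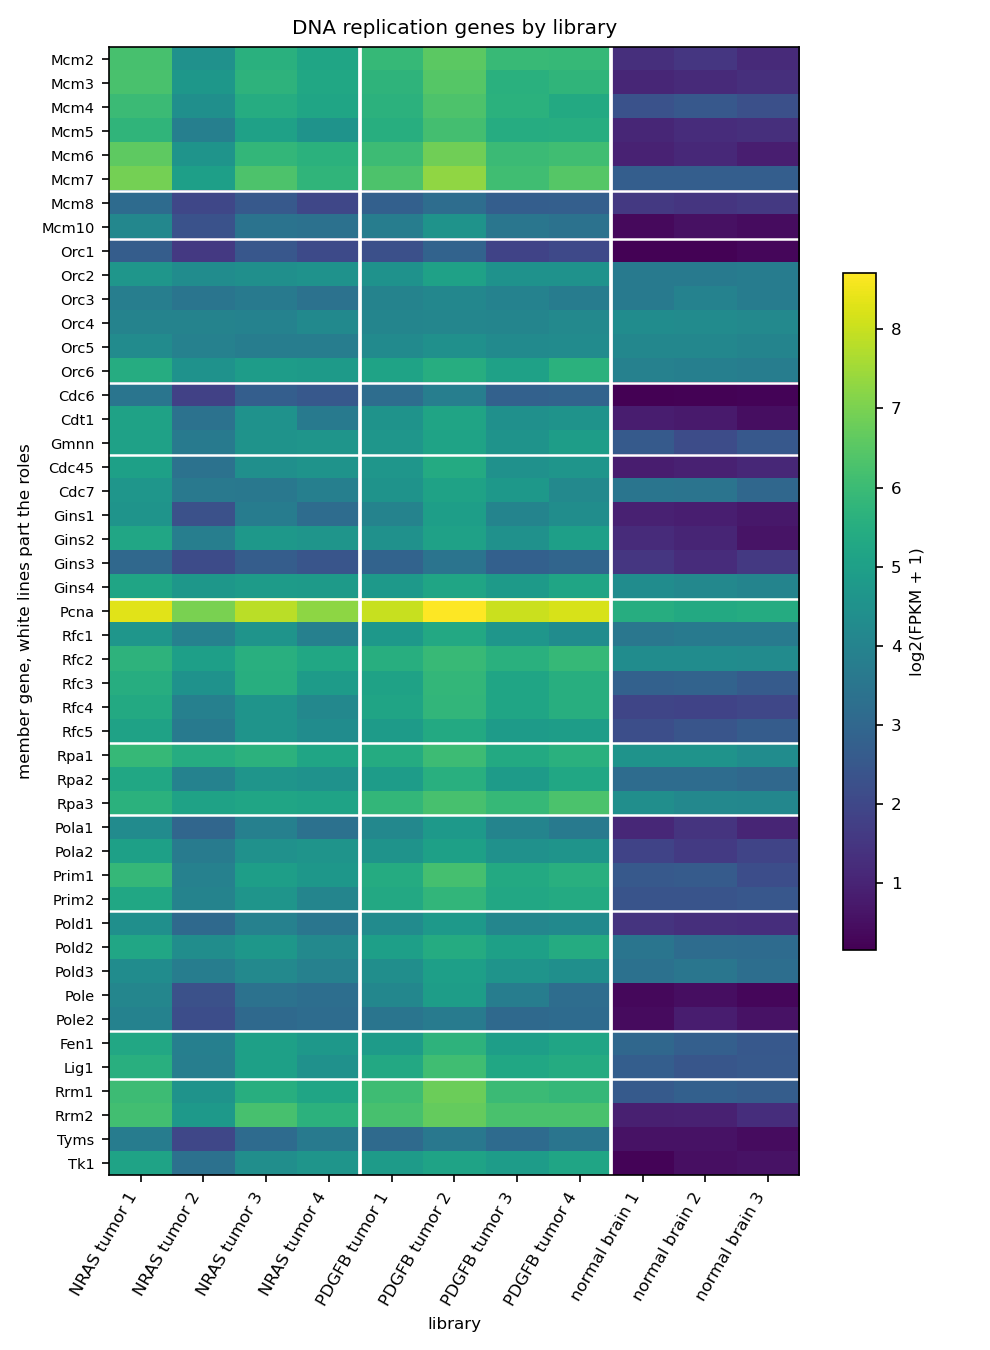
Level of each of the 47 members as log2(FPKM + 1) (colour) in the 4 NRAS tumors, 4 PDGFB tumors and 3 normal brains (columns), with genes in rows by role and white lines between roles and groups. The normal brains are dark for most rows, PDGFB tumor 2 is the brightest column, and Orc3, Orc4 and Orc5 keep nearly the same colour throughout.

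The MCM2-7 genes, which encode the 6 subunits of the helicase ring, were low in normal brain and among the most changed members in tumors. Mcm6 had 95.4, 22.8, 55.3 and 48.3 FPKM across NRAS tumors 1 to 4, 63.5, 114, 62.9 and 66.9 FPKM across PDGFB tumors 1 to 4, and 0.948, 1.21 and 0.835 FPKM across normal brains 1 to 3. Its lowest tumor, NRAS tumor 2, was far above the highest normal brain, and the log2 fold change was 4.66 ± 0.38 (SE) in NRAS tumors and 5.24 ± 0.38 in PDGFB tumors (adjusted p = 8.43e-06 and 4.05e-06). Mcm3 had 76.3, 24.7, 51.2 and 37.3 FPKM across NRAS tumors 1 to 4, 52.5, 87.7, 47.6 and 53.5 FPKM across PDGFB tumors 1 to 4, and 1.09, 1.27 and 1.49 FPKM across normal brains 1 to 3. Again no tumor overlapped normal brain, with log2 fold changes of 4.30 and 4.71 in NRAS and PDGFB tumors. Mcm2, whose subunit also carries histones at the fork, averaged 44.4 ± 22 FPKM in NRAS tumors, 67.8 ± 17.3 FPKM in PDGFB tumors and 1.54 ± 0.290 FPKM in normal brain (SD, n = 4, 4 and 3). Mcm5 ran from 13.5 to 52.7 FPKM in NRAS tumors, 42.6 to 70.6 FPKM in PDGFB tumors and 1.13 to 1.49 FPKM in normal brain, and Mcm4 from 20.6 to 62.1 FPKM in NRAS tumors, 39.9 to 79.7 FPKM in PDGFB tumors and 3.78 to 4.74 FPKM in normal brain. Mcm7 was the most abundant of the 6, with 31 to 121 FPKM in NRAS tumors, 67.2 to 155 FPKM in PDGFB tumors and 5.58 to 5.62 FPKM in normal brain; it was also the highest of them in normal brain. Exons of Mcm7 overlap those of Ap4m1 and Cops6 on the other strand by 321 and 64 bases, and with strandedness not given in the sources used here, reads there cannot be assigned to 1 gene. The same holds for 14 members in all that share at least 50 exon bases with a gene on the other strand, among them Orc2 (1150 bases with Nif3l1), Rfc2 (952 with Lat2), Rfc5 (499 with Wsb2) and Fen1 (1909 with the antisense gene Gm10143 and 130 with Tmem258).

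The 6 subunits act as 1 ring, and their levels drew closer together in tumors. The ratio of the highest to the lowest MCM2-7 level within a library was 2.29 to 2.51 in NRAS tumors, 1.58 to 2.2 in PDGFB tumors and 4.62 to 6.73 in normal brain, with no overlap between either tumor group and normal brain. The lowest levels behind the normal ratios were near 1 FPKM, and the number of reads behind them is unknown. The highest level was that of Mcm7 in every library. The part of its exon overlap with Ap4m1 and Cops6 in these ratios was not tested. Outside the ring, Mcm10, which helps to start the helicase, rose by 2.85 and 3.36 (log2) in NRAS and PDGFB tumors. Mcm8, a helicase of homologous recombination, rose by only 0.87 and 1.32, and its call in NRAS tumors was lost with quantile normalization (adjusted p = 0.0727), within the first title series (0.0588) and without normal brain 2 (0.0505).

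The origin recognition complex was divided. Orc1, the subunit whose level follows the cell cycle, was nearly absent from normal brain: it had 5.38, 2.01, 4.62 and 3.19 FPKM across NRAS tumors 1 to 4, 3.73, 6.45, 2.68 and 3.09 FPKM across PDGFB tumors 1 to 4, and 0.152, 0.148 and 0.233 FPKM across normal brains 1 to 3. Orc1 changed on the log2 scale by 1.97 ± 0.29 in NRAS tumors and 2.03 ± 0.29 in PDGFB tumors (adjusted p = 0.000281 and 0.000215). Orc2 and Orc6 rose less, with log2 fold changes of 0.78 and 1.07 in NRAS tumors and 0.96 and 1.48 in PDGFB tumors.

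Orc3, Orc4 and Orc5 were the members that passed the threshold in neither model. Orc4 had 15, 14.7, 14.4 and 17.8 FPKM across NRAS tumors 1 to 4, 15.6, 15.8, 15.5 and 17.2 FPKM across PDGFB tumors 1 to 4, and 18.9, 18.5 and 17.2 FPKM across normal brains 1 to 3. Orc4 changed by -0.22 ± 0.11 in NRAS tumors and -0.17 ± 0.11 in PDGFB tumors (adjusted p = 0.101 and 0.203), and without NRAS tumor 4, its highest tumor, the estimate of -0.29 in NRAS tumors passed (adjusted p = 0.0391). Orc5 had 18.5, 14.2, 12.7 and 12.8 FPKM across NRAS tumors 1 to 4, 18.2, 20.9, 18 and 18.7 FPKM across PDGFB tumors 1 to 4, and 16.5, 16.2 and 15.4 FPKM across normal brains 1 to 3: the NRAS tumors spanned the normal brains, and all 4 PDGFB tumors lay above them. Orc3 gave -0.23 ± 0.14 in NRAS tumors and 0.15 ± 0.14 in PDGFB tumors. Both estimates of each of these 3 genes lay within 0.23 of 0 on the log2 scale. Orc4 exons share 446 bases with Acvr2a and 136 with Mbd5 on the other strand, and both neighbours averaged less in the tumors, Acvr2a at 6.98 FPKM in NRAS tumors, 8.86 FPKM in PDGFB tumors and 19.8 FPKM in normal brain, and their part in the Orc4 values was not tested. As a ratio within each library, Orc1 over Orc4 was 0.136 to 0.359 in NRAS tumors, 0.173 to 0.408 in PDGFB tumors and 0.00801 to 0.0136 in normal brain.

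**Figure D2:**
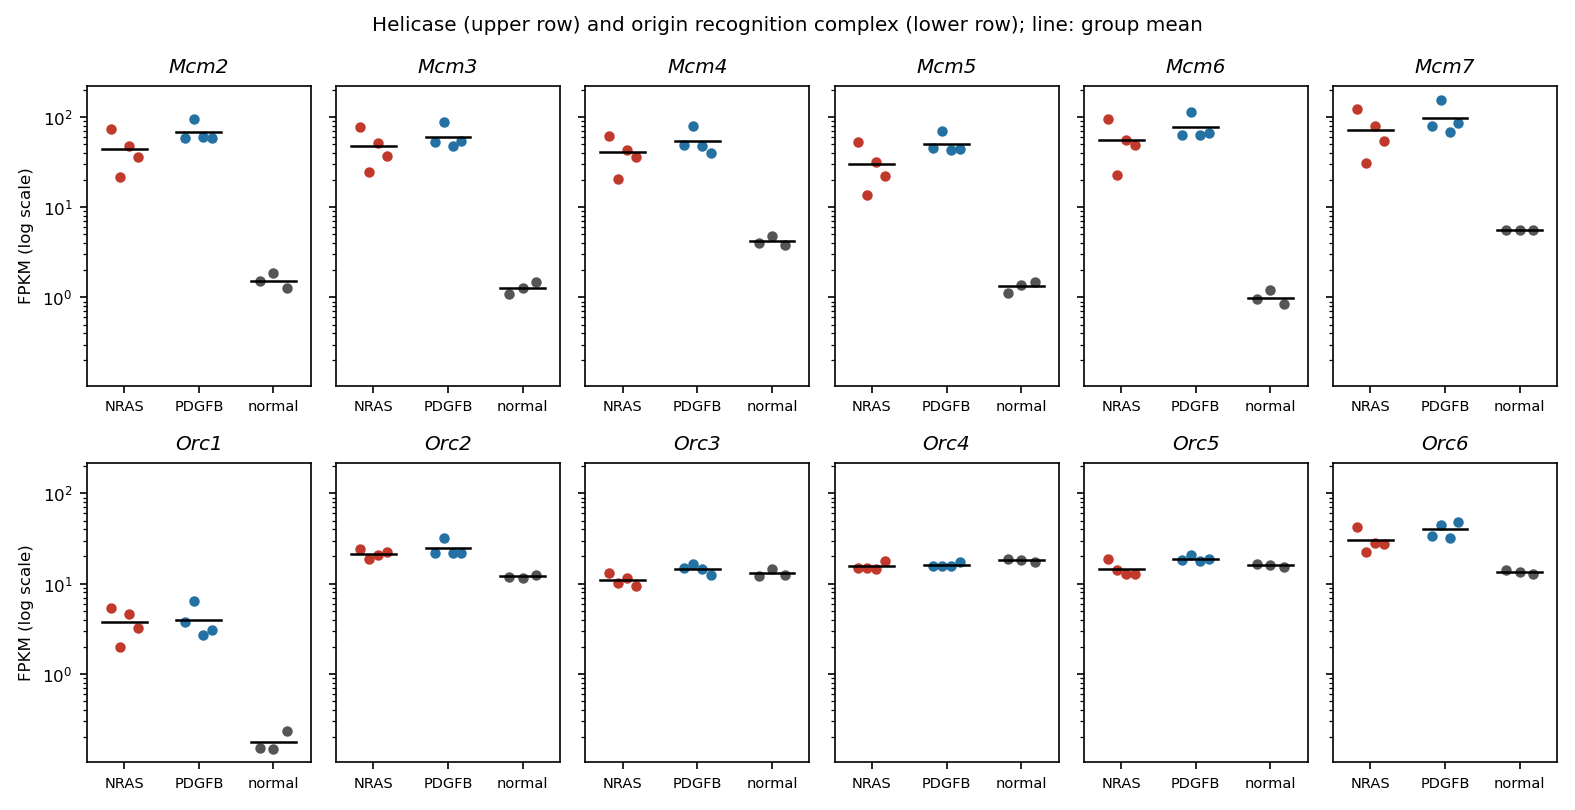
FPKM on a log axis for the MCM2-7 genes (upper row) and Orc1 to Orc6 (lower row); each point is a library of NRAS tumors, PDGFB tumors or normal brain and each line a group mean. The MCM2-7 genes and Orc1 are set apart from normal brain in all 8 tumors, while Orc3, Orc4 and Orc5 stay between 9.41 and 20.9 FPKM in every library.

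Promoter windows are shown for the members with the 3 largest and the 3 smallest mean changes. RefSeq windows (build GRCm38.p6, 250 bases before to 50 after the start) were held for 39 of the 47 members; none was held for Mcm4, Gmnn, Gins1, Gins2, Gins4, Rfc2, Prim2 and Pole. The 150 bases before the start are printed 5′ to 3′ on the strand of the gene, with capitals for E2F words (TTTCCCGC, TTTGGCGC, TTTGCCGC or TTTCGCGC) and for CCAAT, each on either strand. The regions are chr12:24708104-24708253 (plus strand) for Rrm2, and on the minus strand chr1:128359706-128359855 for Mcm6, chr1:20820313-20820462 for Mcm3, chr2:48950082-48950231 for Orc4 (the first of its 3 windows), chr4:34614943-34615092 for Orc3 and chr5:22550339-22550488 for Orc5. The Orc4 stretch lies inside the annotated gene, whose outermost start on the minus strand is at 48952902, so it is not upstream of that start.
Rrm2: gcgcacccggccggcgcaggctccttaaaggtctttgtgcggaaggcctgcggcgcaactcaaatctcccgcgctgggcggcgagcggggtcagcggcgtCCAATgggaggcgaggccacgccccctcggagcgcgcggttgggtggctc
Mcm6: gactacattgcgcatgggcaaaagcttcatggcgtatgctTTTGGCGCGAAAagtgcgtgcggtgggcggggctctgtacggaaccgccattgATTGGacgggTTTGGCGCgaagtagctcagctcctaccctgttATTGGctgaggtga
Mcm3: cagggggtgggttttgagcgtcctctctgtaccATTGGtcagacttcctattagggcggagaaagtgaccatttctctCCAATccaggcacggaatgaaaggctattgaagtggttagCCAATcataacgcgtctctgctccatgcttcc
Orc4: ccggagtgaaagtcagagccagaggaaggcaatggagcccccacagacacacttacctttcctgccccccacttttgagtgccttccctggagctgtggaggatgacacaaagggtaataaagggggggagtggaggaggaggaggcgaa
Orc3: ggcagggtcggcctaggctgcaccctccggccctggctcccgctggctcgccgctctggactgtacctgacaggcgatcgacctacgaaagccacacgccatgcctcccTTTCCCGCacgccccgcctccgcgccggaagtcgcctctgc
Orc5: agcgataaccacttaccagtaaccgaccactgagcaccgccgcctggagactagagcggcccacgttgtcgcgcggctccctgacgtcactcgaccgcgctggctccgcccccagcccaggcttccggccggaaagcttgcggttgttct

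An E2F word stood in a window of 16 of 39 members (41.0%), against 2.26% of all 32851 windows and 4.40% of the 10972 tested genes with a window. Mcm6 holds TTTGGCGC at 110 and 47 bases before the start, the first overlapping a TTTCGCGC on the other strand, and the E2F words of Mcm3 lie past the start and so outside the printed stretch. Orc3 has TTTCCCGC although its level did not pass the threshold, and Rrm2, with the largest mean change, has no such word. Members with and without an E2F word had median log2 fold changes (mean of both tumor contrasts) of 2.65 and 2.29. CCAAT stood in a window of 24 of 39 members (61.5%), against 37.4% of all windows and 42.6% of tested genes. These matches describe the letters only.

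Licensing factors rose together with their inhibitor. Cdt1, the loader of the helicase ring, had 33.3, 9.36, 21.7 and 11.9 FPKM across NRAS tumors 1 to 4, 22.7, 34.8, 21.2 and 22.7 FPKM across PDGFB tumors 1 to 4, and 0.783, 0.694 and 0.400 FPKM across normal brains 1 to 3, and no tumor overlapped normal brain. On the log2 scale Cdt1 changed by 3.47 ± 0.36 in NRAS tumors and 4.0 ± 0.36 in PDGFB tumors (adjusted p = 3.6e-05 and 1.35e-05). Cdc6, which works with the origin complex to load the ring, was under 0.2 FPKM in every normal brain and reached 2.54 to 10.2 FPKM in NRAS tumors and 5.96 to 13.2 FPKM in PDGFB tumors. Gmnn, which encodes geminin, rose by 2.06 and 2.40 (log2) in NRAS and PDGFB tumors and stood at 3.40 to 4.92 FPKM in normal brain. The ratio of Gmnn to Cdt1 FPKM was 0.974 to 1.98 in NRAS tumors, 0.964 to 1.30 in PDGFB tumors and 4.90 to 11.9 in normal brain.

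Among the genes that activate the helicase, Cdc45 and the GINS genes rose in both models, with a wide range of sizes. Cdc45, a helicase cofactor, had 9.50 to 31.3 FPKM in NRAS tumors, 21.3 to 41.4 FPKM in PDGFB tumors and 0.803 to 1.14 FPKM in normal brain. The 4 GINS subunits form 1 complex, but Gins2 rose by 3.65 and 3.80 (log2) in NRAS and PDGFB tumors, Gins1 by 2.60 and 3.48, Gins3 by 1.12 and 1.57, and Gins4 by 0.73 and 0.83. Gins4 was already at 15.1 to 18.8 FPKM in normal brain, where Gins1, Gins2 and Gins3 were each under 2 FPKM. Exons of Gins2 share 2758 bases with Gse1 on the other strand. Cdc7, the kinase that fires origins, had 24.1, 11.4, 11.1 and 13.6 FPKM across NRAS tumors 1 to 4, 22.4, 33.2, 25.4 and 17.2 FPKM across PDGFB tumors 1 to 4, and 10.1, 9.97 and 7.14 FPKM across normal brains 1 to 3. It passed in PDGFB tumors (1.32 ± 0.28, adjusted p = 0.00196) and not in NRAS tumors (0.62 ± 0.28, adjusted p = 0.0719), and the difference between the models did not pass either (-0.70 ± 0.26, adjusted p = 0.0643). Dbf4, the activating subunit of CDC7 and no member, rose in both models by 3.64 and 4.08, with 9.86 to 36 FPKM in NRAS tumors, 25.9 to 37.1 FPKM in PDGFB tumors and 0.664 to 0.833 FPKM in normal brain.

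The sliding clamp was the most abundant member in every library. Pcna had 322, 126, 225 and 153 FPKM across NRAS tumors 1 to 4, 253, 419.7, 258 and 291 FPKM across PDGFB tumors 1 to 4, and 44.3, 40.2 and 41.5 FPKM across normal brains 1 to 3. All tumors exceeded all normal brains, and the log2 fold change was 2.18 ± 0.29 in NRAS tumors and 2.80 ± 0.29 in PDGFB tumors (adjusted p = 0.000173 and 3.45e-05). The clamp loader has 1 large subunit, Rfc1, and 4 small ones. The small subunits rose by 1.07 (Rfc2), 2.32 (Rfc3), 2.55 (Rfc4) and 2.0 (Rfc5) in NRAS tumors and by 1.43, 2.63, 3.48 and 2.57 in PDGFB tumors. Lat2, which shares 952 exon bases with Rfc2, averaged 15.6 FPKM in NRAS tumors, 4.15 FPKM in PDGFB tumors and 1.99 FPKM in normal brain. Eif4a2 and Wsb2, the neighbours of Rfc4 and Rfc5, averaged less in the tumors than in normal brain. The part of these neighbours in the subunit values was not tested. Rfc1 rose least, by 0.62 ± 0.25 in NRAS tumors and 1.13 ± 0.25 in PDGFB tumors, and its adjusted p of 0.0495 in NRAS tumors passed 0.05 narrowly: it was above the threshold in 10 of 18 alternatives, up to 0.125 without NRAS tumor 1. With the title series as a covariate the Rfc1 call in PDGFB tumors was also lost (adjusted p = 0.0607).

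Replication protein A, which coats single-stranded DNA and also serves repair, was expressed in normal brain and rose by a smaller amount. Rpa1 rose by 1.08 and 1.13 (log2) in NRAS and PDGFB tumors, Rpa2 by 1.45 and 2.01, and Rpa3 by 1.04 and 1.85.

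All 9 members that encode subunits of the replicative polymerases rose in both models. The polymerase alpha and primase genes Pola1, Pola2, Prim1 and Prim2, which lay down the first stretch of each strand, had log2 fold changes of 2.06 to 2.66 in NRAS tumors and 2.86 to 3.17 in PDGFB tumors. Pole, the catalytic subunit of the leading-strand polymerase, had 15.9, 3.82, 9.35 and 8.56 FPKM across NRAS tumors 1 to 4, 16.4, 29.3, 12.7 and 8.32 FPKM across PDGFB tumors 1 to 4, and 0.279, 0.383 and 0.243 FPKM across normal brains 1 to 3. No tumor overlapped normal brain, and PDGFB tumor 4 had about the level of NRAS tumor 4. Pold1, the catalytic subunit of polymerase delta, rose by 2.40 and 2.99, whereas its accessory subunit Pold3 rose by 0.69 and 1.23 and already stood at 8.49 to 10.4 FPKM in normal brain. Fen1, which trims Okazaki fragments, and Lig1, which seals them, rose by 1.96 and 2.14 in NRAS tumors and by 2.42 and 2.95 in PDGFB tumors.

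In nucleotide supply, Rrm2 had the largest mean change of all 47 members. This S-phase subunit of ribonucleotide reductase had 69.3, 25.9, 74.3 and 49.9 FPKM across NRAS tumors 1 to 4, 73.7, 103, 75.5 and 76.5 FPKM across PDGFB tumors 1 to 4, and 0.895, 0.908 and 1.43 FPKM across normal brains 1 to 3. On the log2 scale Rrm2 changed by 4.65 ± 0.30 in NRAS tumors and 5.32 ± 0.30 in PDGFB tumors (adjusted p = 2.63e-06 and 1.04e-06). Its partner Rrm1 rose less, by 2.63 and 3.49, and the ratio of Rrm2 to Rrm1 was 1.08 to 1.66 in NRAS tumors, 0.943 to 1.33 in PDGFB tumors and 0.156 to 0.261 in normal brain. Rrm2b, the alternative small subunit induced by p53 and no member, went the other way, with 4.62 to 7.60 FPKM in NRAS tumors, 4.38 to 6.13 FPKM in PDGFB tumors and 10.6 to 13.4 FPKM in normal brain (log2 fold change -0.85 in NRAS tumors and -0.99 in PDGFB tumors; adjusted p = 0.00216 and 0.000902), and it was picked out after its values were seen. Tk1, the salvage kinase for thymidine, rose by 3.92 and 4.56, and Tyms, which makes thymidylate anew, by 2.62 and 2.81. The ratio of Tyms to Tk1 was 0.317 to 0.508 in NRAS tumors, 0.276 to 0.324 in PDGFB tumors and 0.722 to 2.57 in normal brain. Both genes averaged under 1 FPKM in normal brain, and the number of reads behind the normal ratios is unknown.

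**Figure D3:**
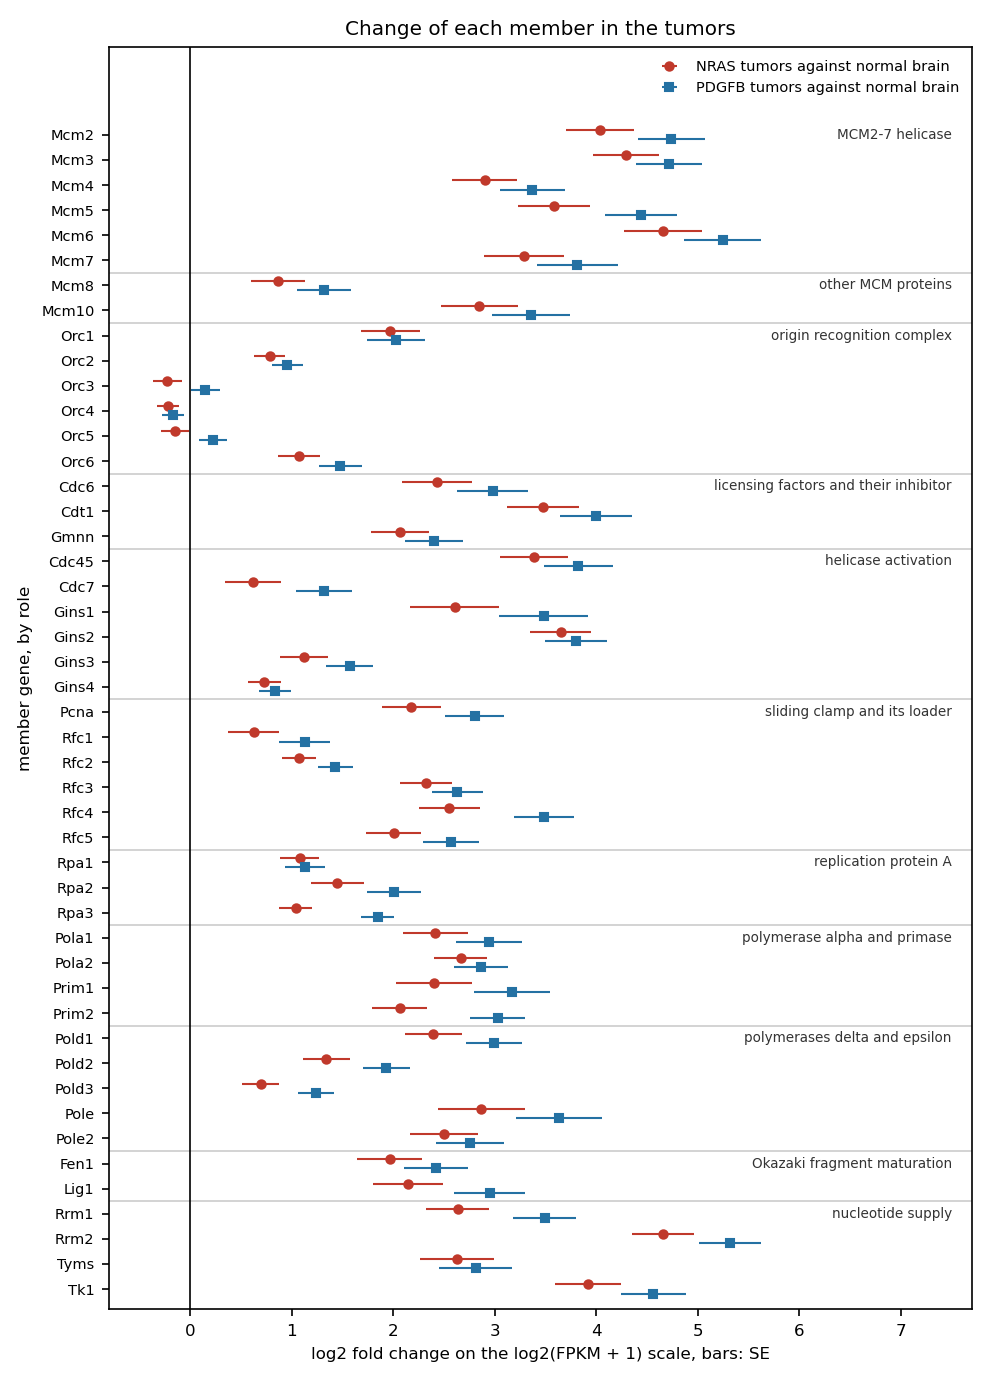
Log2 fold change of each member against normal brain on the log2(FPKM + 1) scale, for NRAS tumors (red circles) and PDGFB tumors (blue squares), with SE bars and genes in rows by role. Estimates run from -0.23 (Orc3) to 4.66 (Mcm6) in NRAS tumors and from -0.17 (Orc4) to 5.32 (Rrm2) in PDGFB tumors, and for all 47 members the PDGFB point lies to the right.

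Members already expressed in normal brain tended to change less, with Pcna as an exception. The 15 members at 7 FPKM or more in normal brain, a limit set after the values were seen, had median log2 fold changes of 0.78 in NRAS tumors and 1.23 in PDGFB tumors. The 32 members under 7 FPKM had medians of 2.61 and 3.26. Across the 47 members the rank correlation of normal level with mean fold change was -0.72, a description in which both measures share the normal brain values.

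The labelled matches gave the same direction as the groups. NRAS tumor 2 exceeded its match, normal brain 1, for 44 of 47 members, by a median of 1.48 (log2) with a range of -0.34 (Orc4) to 3.83 (Rrm2), where 49.3% of all genes tested were higher. PDGFB tumor 1 exceeded normal brain 3 for 46 members, by a median of 2.67 with a range of -0.13 (Orc4) to 5.14 (Mcm6), where 50.7% of all genes were higher. By their labels PDGFB tumor 1 is B6 and normal brain 3 is FVB, and their titles fall in different number series. Each match is 1 pair and carries no test.

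Most members were high or low in the same tumors. The mean log2(FPKM + 1) of the members was 5.04, 3.77, 4.54 and 4.29 across NRAS tumors 1 to 4, 4.77, 5.34, 4.71 and 4.82 across PDGFB tumors 1 to 4, and 2.27, 2.28 and 2.22 across normal brains 1 to 3. PDGFB tumor 2 had the highest level of the 11 libraries for 39 members (18.4% of all genes tested), and NRAS tumor 2 the lowest of the 8 tumors for 39 members (17% of all genes). NRAS tumor 1 was the highest of the 4 NRAS tumors for 44 members (24.3% of all genes). Orc4 was an exception, with its highest tumor level in NRAS tumor 4 and its lowest in NRAS tumor 3. The median coefficient of variation of a member was 42.1% over NRAS tumors, 23.9% over PDGFB tumors and 14.2% over normal brains. The neuron markers ran the other way at the ends of this order: their sum in FPKM was 346, 1598, 709 and 833 across NRAS tumors 1 to 4, 866, 171, 652 and 846 across PDGFB tumors 1 to 4, and 3439, 3359.6 and 3872 across normal brains 1 to 3, so PDGFB tumor 2 had the least of the 8 tumors and NRAS tumor 2 the most. Against normal brain, 30.3% of all genes tested were called lower in NRAS tumors and 29.2% in PDGFB tumors. Of the 12 neuron markers, 11 fell in NRAS tumors and 12 in PDGFB tumors, and none was at 0 in any library. Their part in the member levels was not tested.

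**Figure D4:**
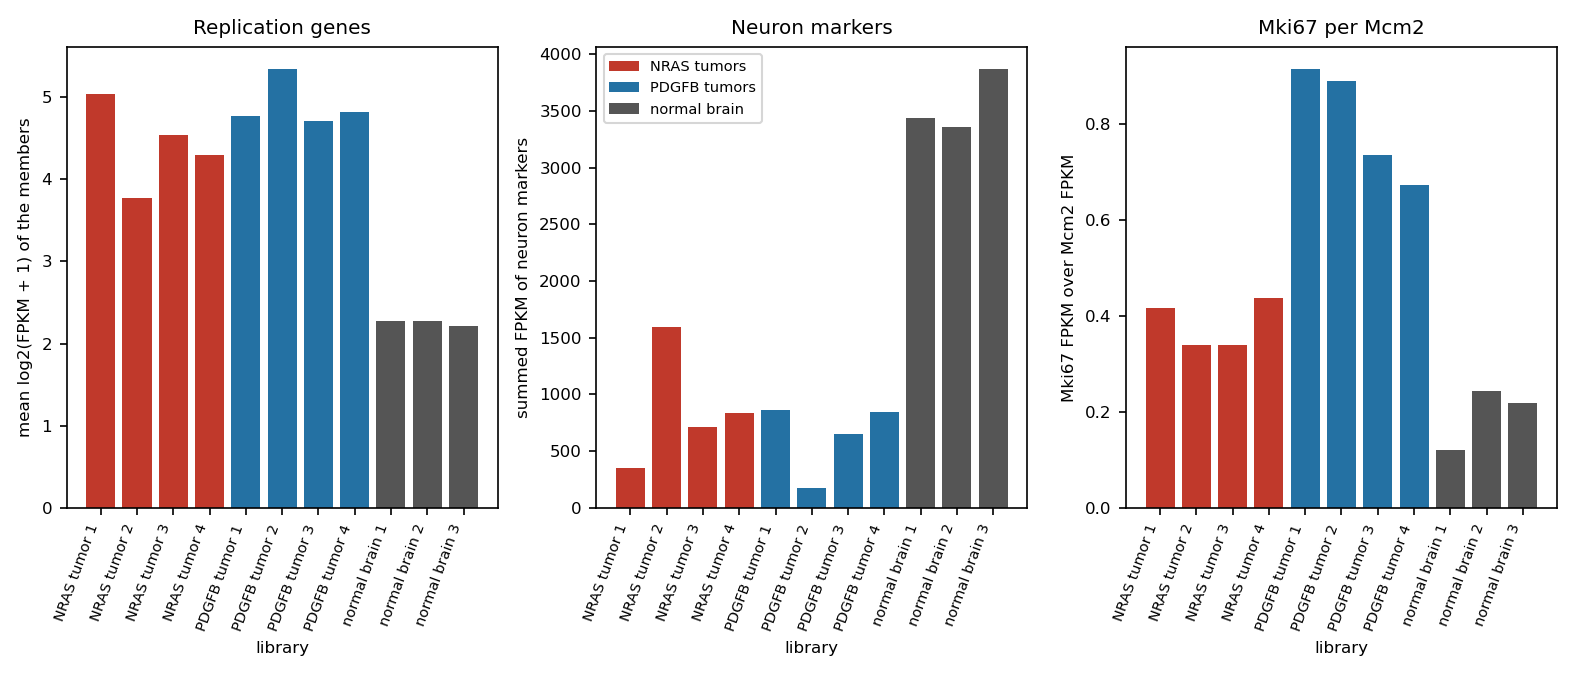
Bars for each library (NRAS tumors, PDGFB tumors, normal brain) of the mean log2(FPKM + 1) of the 47 members (left), the summed FPKM of 12 neuron markers (middle) and the ratio of Mki67 to Mcm2 FPKM (right). PDGFB tumor 2 has the highest member level (5.34) and the lowest neuron sum of the tumors (171), and the 4 NRAS tumors have the lower Mki67 ratios of the tumors.

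Between the models, the members leaned lower in NRAS tumors and few differences passed. In NRAS against PDGFB tumors 5 of 47 members were called lower, a share near the 12.2% of all genes tested that were lower. No member was called higher, where 14.3% of all genes were. The estimate was below 0 for all 47 members, against 53.1% of all genes, with a median of -0.52 against -0.04 over all genes. The members moved together within a library and are not 47 independent observations. Rpa3, the smallest subunit of replication protein A, had the smallest p: it had 48.2, 33.3, 35.7 and 33.6 FPKM across NRAS tumors 1 to 4, 56, 74.6, 59 and 77.1 FPKM across PDGFB tumors 1 to 4, and 19.7, 16.9 and 16.5 FPKM across normal brains 1 to 3. Every NRAS tumor lay below every PDGFB tumor, with a log2 fold change of -0.81 ± 0.15 (adjusted p = 0.00361). Prim2, the large primase subunit, had 37.1, 14.9, 23.8 and 15.5 FPKM across NRAS tumors 1 to 4, 39, 54, 38.5 and 40.6 FPKM across PDGFB tumors 1 to 4, and 4.23, 4.20 and 4.65 FPKM across normal brains 1 to 3. NRAS tumor 1 lay just below the lowest PDGFB tumor and the other 3 NRAS tumors far below it, and the change was -0.97 ± 0.25 (adjusted p = 0.0156).

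Rpa3 and Prim2 passed in all 19 alternatives, with adjusted p up to 0.0135 and 0.0474. Rfc4 (-0.93 ± 0.28, adjusted p = 0.0291), Pold3 (-0.54 ± 0.17, 0.0323) and Rrm1 (-0.86 ± 0.29, 0.0472) passed in 12, 11 and 6 of the 19. NRAS and PDGFB tumors did not overlap for 3 members, Rpa3, Prim2 and Pold3, each lower in NRAS tumors (11.6% of all genes, with 12.9% higher). Exons of Rfc4 share 194 bases with Eif4a2 on the other strand. A further 6 members had an adjusted p between 0.05 and 0.1, and 19 of 47 had an unadjusted p under 0.05. The count of members called rested on single libraries: it was 26 without NRAS tumor 1, which had the highest levels of its group, and 2 without NRAS tumor 2, NRAS tumor 4 or PDGFB tumor 2, and 3 without NRAS tumor 3 or PDGFB tumor 3. It was 2 when only both tumor groups were fitted and 7 within the second title series.

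**Figure D5:**
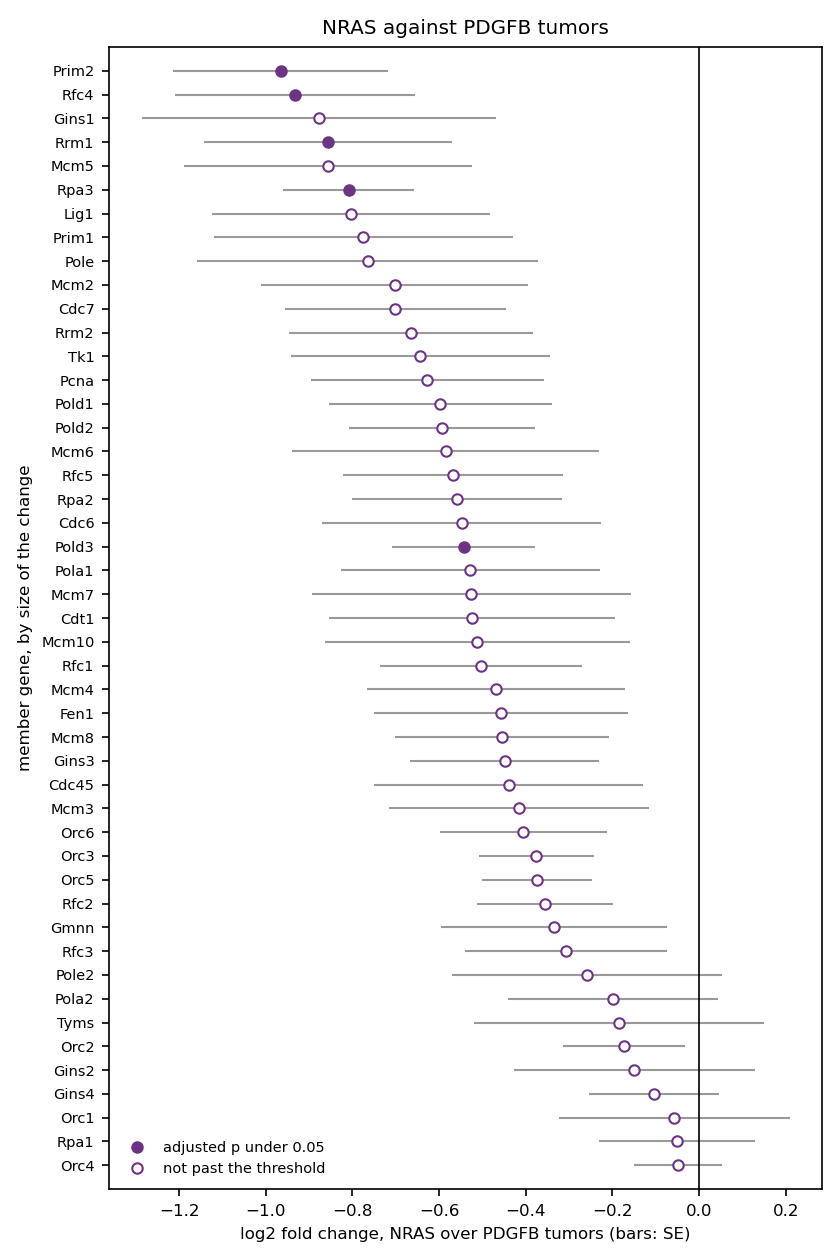
Log2 fold change of each member in NRAS over PDGFB tumors with SE bars, in order of size; filled points have an adjusted p under 0.05. All 47 points lie left of 0, from -0.97 (Prim2) to -0.05 (Orc4), and the 5 filled points are Prim2, Rfc4, Rrm1, Rpa3 and Pold3.

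Other cell types also differed between the models. Of all genes tested, 14.3% were called higher in NRAS than in PDGFB tumors and 12.2% lower. The 9 macrophage and microglia markers summed to 264 to 2040.2 FPKM in NRAS tumors, 95 to 176 FPKM in PDGFB tumors and 90.1 to 107 FPKM in normal brain, and 8 of 9 were called higher in NRAS than in PDGFB tumors. The 8 T and NK cell markers in the table summed to 9.79 to 250.0 FPKM in NRAS tumors, 0.435 to 1.51 FPKM in PDGFB tumors and 1.73 to 7.02 FPKM in normal brain, with 1 to 4 of them at 0 in each PDGFB tumor and 3 to 5 in each normal brain, and 6 of 7 tested were higher in NRAS than in PDGFB tumors. The 8 markers of neural and oligodendrocyte progenitors summed to 205 to 698 FPKM in NRAS tumors, 1226 to 1550.2 FPKM in PDGFB tumors and 109 to 148 FPKM in normal brain, and 8 of 8 were lower in NRAS than in PDGFB tumors. Their part in the differences between the models was not tested.

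Genes that act after replication, in mitosis, rose as well. All 20 on the list were higher in both models than in normal brain, where 32% of all genes tested were in NRAS tumors and 29.3% in PDGFB tumors. In NRAS against PDGFB tumors 9 of 20 were lower and 0 higher, with a median of -0.86. Of all genes tested, 12.2% were called lower there and 14.3% higher. Mki67, the proliferation antigen Ki-67, had 30.4, 7.27, 16 and 15.6 FPKM across NRAS tumors 1 to 4, 53.8, 83.3, 44.3 and 39.1 FPKM across PDGFB tumors 1 to 4, and 0.181, 0.446 and 0.274 FPKM across normal brains 1 to 3. No NRAS tumor reached the lowest PDGFB tumor, and the log2 fold change was -1.71 ± 0.35 (adjusted p = 0.00567). Against Mcm2 of the same library, Mki67 stood at 0.415, 0.340, 0.339 and 0.438 across NRAS tumors 1 to 4, 0.914, 0.888, 0.734 and 0.672 across PDGFB tumors 1 to 4, and 0.120, 0.242 and 0.217 across normal brains 1 to 3. These ratios did not overlap between NRAS tumors, PDGFB tumors and normal brain. Mki67 stood at 0.446 FPKM or less in every normal brain, and the number of reads behind the normal ratios is unknown.

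Members were then set against the mean log2(FPKM + 1) of MCM2-7 in the same library, a scale chosen after the values were seen. Mki67 averaged -1.39 ± 0.16 on it in NRAS tumors and -0.27 ± 0.18 in PDGFB tumors (SD, n = 4 each), without overlap. Normal brain, at -1.26 ± 0.08 (SD, n = 3), overlapped the NRAS tumors. On this scale 0.366% of all genes tested lay wholly lower in NRAS tumors and 12% wholly higher. In FPKM those shares were 11.6% and 12.9%. MCM2-7 leaned lower in NRAS tumors, so the scale itself lifts other genes there, and the 0.366% does not measure how unusual Mki67 is. Mki67 also had the largest difference between the models among the mitosis genes. Top2a, at 0.27 ± 0.17 in NRAS tumors and 0.70 ± 0.18 in PDGFB tumors, and Cdk1, the kinase that drives entry into mitosis, at -0.21 ± 0.59 in NRAS tumors and -0.34 ± 0.16 in PDGFB tumors, overlapped between the models on this scale. Of the 41 members outside MCM2-7, Orc1 was higher in all NRAS tumors (-3.22 ± 0.29 in NRAS tumors and -3.76 ± 0.12 in PDGFB tumors), a direction found for 12% of all genes, and Lig1 was lower (-0.71 ± 0.05 in NRAS tumors and -0.50 ± 0.07 in PDGFB tumors). The direction of Lig1 was that found for 0.366% of all genes, a share that for the same reason does not measure how unusual Lig1 is. The other 39 members overlapped. Within MCM2-7 itself, Mcm3 and Mcm5 also did not overlap between the models. Their differences, NRAS minus PDGFB tumors, were 0.18 for Mcm3 and -0.26 for Mcm5, beside -0.21 for Lig1. Orc1 stood at 6.45 FPKM or less in every tumor, where adding 1 before the log compresses differences.

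Other genes of the pathway rose too. Against normal brain, 32% of all genes tested were higher and 30.3% lower in NRAS tumors, and 29.3% and 29.2% in PDGFB tumors. Of 36 pathway genes outside the list, 34 rose and 1, Rrm2b, fell in each model. Their medians were 1.71 in NRAS tumors and 2.47 in PDGFB tumors. Top2a, which untangles copied DNA, changed most, with 22.6 to 95.5 FPKM in NRAS tumors, 77 to 164 FPKM in PDGFB tumors and 0.437 to 0.708 FPKM in normal brain, followed by Uhrf1, which helps to copy DNA methylation, at 4.52 and 4.95 (log2) in NRAS and PDGFB tumors. Between the models 1 of the 36 was higher in NRAS tumors and 6 were lower (14.3% and 12.2% of all genes tested), so the count of lower genes was near the background. The higher one was Pold4, the small subunit of polymerase delta, with 35, 56.3, 58.7 and 28.2 FPKM across NRAS tumors 1 to 4, 16.7, 16.1, 19.9 and 27.1 FPKM across PDGFB tumors 1 to 4, and 17, 11.1 and 13.9 FPKM across normal brains 1 to 3, so that polymerase delta had Pold3 lower and Pold4 higher in NRAS than in PDGFB tumors (1.08 ± 0.25 for Pold4, adjusted p = 0.00984). The lower ones included Clspn, Wdhd1 and Rnaseh2b at -1.02, -1.0 and -0.94.

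Of 11 E2F factors and pocket proteins, 7 rose in NRAS tumors and 9 in PDGFB tumors against normal brain, and 0 fell. Over all genes tested, 32% rose and 30.3% fell in NRAS tumors, and 29.3% and 29.2% in PDGFB tumors. E2f8 and E2f7, which repress E2F targets late in S phase, rose by 3.19 and 1.82 in NRAS tumors and by 2.88 and 2.88 in PDGFB tumors, and the pocket protein gene Rbl1 by 2.81 and 3.08. E2f7 and E2f2, an activating factor, were lower in NRAS than in PDGFB tumors, with log2 fold changes of -1.06 and -0.67 (adjusted p = 0.0323 and 0.0168). They were the only 2 of the 11 called between the models, where 12.2% of all genes tested were lower and 14.3% higher.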

How the data were processed

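Bulk RNA of 4 NRAS tumors, 4 PDGFB tumors and 3 normal brains was sequenced, and samples were grouped by their labels. The authors deposited 1 table of FPKM, whose values are scaled by transcript length and library total. Per the submitters' processing notes, the tools were TopHat2 2.0.13 and Cufflinks 2.2.1 and the build mm10, with settings, annotation and strandedness not given in the sources used here. Because of the scaling to a library total, abundant transcripts can lower all others of a library. Of 24347 rows, 27 whose names had become dates were left out, which left 24320 genes.

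One fit over all 11 libraries with a mean per group was made in limma 3.58.1 (R 4.3.3, moderated with a trend) on log2(FPKM + 1), for 14491 genes with at least 1 FPKM in at least 3 libraries, and it was tested on simulated data. Tests were two-sided; p-values were adjusted by Benjamini-Hochberg across the 14491 genes, and calls needed an adjusted p under 0.05. Adding 1 shrinks the fold changes of genes with low FPKM. The members and lists were chosen with earlier results of these data known. Genes named are all members, Nras, Pdgfb and Mki67, and for each other list and comparison up to 4 called genes with the largest change, not all of which are printed. Rrm2b was named after its values were seen, and neighbours only for their exon overlap. Alternatives were other pseudocounts, filters, scalings, groups and covariates, a replicate block, and each library left out. Random blocks for the labelled matches were added after the data were seen. Same-numbered samples of different groups deviated with correlations of -0.50 to 0.16 across genes, so the numbers were not taken as pairs. Exon overlaps of at least 50 bases came from GENCODE M21.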

Additional observations from a re-analysis of the deposited data

Results flagged for a closer look

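In 10 of 94 groups of 4 tumor libraries (each member in each model), 1 library stood apart from its group by Dixon's criterion, which chance alone flags in about 5% of groups. In 9 of the 10 that library was PDGFB tumor 2, the highest of its group: Mcm2 at 93.8 FPKM, Mcm5 at 70.6 FPKM, Mcm6 at 114 FPKM, Mcm8 at 8.38 FPKM, Orc2 at 32.3 FPKM, Cdt1 at 34.8 FPKM, Rfc5 at 40.1 FPKM, Prim2 at 54.0 FPKM and Rrm2 at 103 FPKM. These genes moved together in that library and are not independent flags. PDGFB tumor 2 also had the lowest neuron marker sum of the tumors, 171 FPKM, and the part of this in its member levels was not tested. Orc4 stood apart in NRAS tumor 4 at 17.8 FPKM, barely past the criterion.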

How the results depend on the processing

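Against normal brain, 41 to 44 members were called in NRAS tumors and 43 or 44 in PDGFB tumors under every alternative run; the 44 in NRAS tumors, without NRAS tumor 4, included Orc4, called lower (log2 fold change -0.29). Between the models the count of 5 was 2 with the replicate block and 2 when only both groups were fitted, 2 to 26 with 1 library left out, and 4 to 7 otherwise. The block changed no count of members by over 1.5 times against normal brain, and the numbers are not known to pair the samples. The count of all genes called in PDGFB tumors against normal brain was 4768 with the title series as a covariate, against 8470, and the cause was not tested. No fit within 1 title series was possible for that comparison, and Orc1 could not be tested at 5 FPKM in at least 3 libraries. Members that changed sign were not called in the fit reported: Orc5 at 0.016 in NRAS tumors against normal brain, and between the models Orc1 at 0.016, Orc4 at 0.0033 and Tyms at 0.096, each with the title series as a covariate or within 1 series. With 1 library left out, estimates between the models ran from -0.21 to 0.15 for Orc1, -0.36 to 0.11 for Gins2, -0.16 to 0.091 for Rpa1, -0.39 to 0.048 for Pola2, -0.54 to 0.046 for Pole2 and -0.39 to 0.21 for Tyms. Without read counts, the precision of levels under 1 FPKM, such as Orc1, Cdc6 and Pole in normal brain, is unknown, and the added 1 understates their fold changes.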

Other observations

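A few DNA polymerases of repair and of mitochondria were called between the models. Of 12 genes of translesion synthesis, base excision repair and mitochondrial replication, 4 rose and 1 fell in NRAS tumors and 8 rose and 0 fell in PDGFB tumors against normal brain, where 32% of all genes tested were higher and 30.3% lower in NRAS tumors and 29.3% and 29.2% in PDGFB tumors. Between the models 1 of the 12 was higher and 3 were lower in NRAS tumors (14.3% and 12.2% of all genes). Polg, the polymerase of mitochondrial DNA, had 26.1, 19.3, 17.7 and 14.9 FPKM across NRAS tumors 1 to 4, 57.8, 74.2, 66.7 and 53.8 FPKM across PDGFB tumors 1 to 4, and 12.2, 14.3 and 15.9 FPKM across normal brains 1 to 3. All 4 PDGFB tumors lay above all other libraries, and the log2 fold change of NRAS over PDGFB tumors was -1.66 ± 0.17 (limma, adjusted p = 0.000219). Rev3l, the catalytic subunit of the translesion polymerase zeta, had 17.6, 8.98, 9.02 and 5.41 FPKM across NRAS tumors 1 to 4, 31, 44.9, 33.8 and 19.5 FPKM across PDGFB tumors 1 to 4, and 6.46, 7.44 and 5.48 FPKM across normal brains 1 to 3, with a change of -1.61 ± 0.31 (adjusted p = 0.00419). Polk, a translesion polymerase, was higher in NRAS than in PDGFB tumors by 0.73 (adjusted p = 0.0281).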
